A study of Sus scrofa with 6 samples.

Results

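The spliceosome snRNP proteins and splicing factors described here are the transcript rows of a pig embryo table whose deposited protein description contained the words small nuclear ribonucleoprotein, splicing factor, pre-mRNA-splicing or pre-mRNA-processing. These were 74 of 20523 rows, and they carried 63 gene names, 10 of which had several rows. A row described as SNRPB or SNRPN was counted as a name of its own, beside rows of SNRPB and of SNRPN. RNA-seq compared whole Large White pig embryos at 17.5 to 18 days post coitum, as 1 library from each of 3 embryos homozygous for the mutant alleles of 2 quantitative trait nucleotides of VRTN (QQ) and each of 3 wild-type embryos (qq, called WT here). The study asked which genes differ with VRTN, a gene linked to the number of thoracic vertebrae. Genotypes were read from the extra-embryonic tissue of each embryo, and the labels name neither litters nor dams, so a p-value measures the spread between these 6 embryos only.

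The spliceosome removes introns from newly made transcripts. It is built from small nuclear RNAs, each bound to a ring of Sm proteins and to proteins of its own: the U1 particle recognises the start of an intron, the U2 particle its branch point, and the U4/U6 and U5 particles join before catalysis. The PRP19 complex and a set of helicases then drive the catalytic steps, SR proteins guide the machinery to exons, and a separate minor spliceosome with U11 and U12 particles removes a rare class of introns. The machinery is used in every cell type, and proliferating embryonic tissue is rich in its messenger RNAs.

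The libraries held 12.2 to 13.5 uniquely mapped reads in units of 1000000, and splicing rows took 1.04 to 1.12% of them. The QQ libraries scored between 10.9 and 29.99 on the first principal component, which carried 57.7% of the variance, and the WT libraries −9.12, 1.00 and, far from all others, −61.7 for WT replicate 3. VRTN itself was barely detected, with 3 reads over the QQ libraries and 0 over the WT libraries. No gene symbol could be given to 10955 of the 20523 rows, so a marker without a named row may still be among them. Markers of the embryo proper with a named row (3 of 10, MEOX1, TCF15 and TBX5) summed to 49.3 to 58.5 RPKM in QQ and 44.6 to 53.7 in WT libraries, where RPKM is reads per kilobase of transcript per 1000000 reads. Trophoblast markers (7 of 9 with a named row, led by the epithelial keratin KRT8) summed to 3069 to 3929 RPKM in QQ and 3844 to 4586 in WT libraries. Red cell markers (7 of 7) ran from 291 to 3192 RPKM in QQ and from 2146 to 7660 in WT libraries, and yolk sac and liver endoderm markers (3 of 5) from 17.9 to 435 in QQ and from 11.8 to 194 in WT libraries. No marker with a named row was at 0 in all libraries. Their part in the results below was not tested, and in whole embryos fewer cells of a type and less RNA per cell cannot be told apart.

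Splicing messenger RNAs were abundant in these embryos. Of the 74 rows, 71 had enough reads to be tested, and their median level was 47.9 RPKM, against 9.90 RPKM over all 13957 tested rows. A mean of at least 100 RPKM was found in 24 rows and a mean below 1 RPKM in 5. Reads covered at least 80% of the transcript in every library in 54 rows, whereas coverage was below 50% in at least 1 library in 11, some of which are fragments of a gene. The rows not tested were a 823 bp row of ZRSR2, a 447 bp row of SNRNP25 and a 684 bp row of BCAS2. By class median of tested rows, the Sm proteins sat highest, at 217 RPKM with row means of 47.7 to 383, followed by the U2 class at 97.7 and the SR proteins at 88.6 RPKM. Proteins of the minor spliceosome were lowest, with tested rows from 2.21 to 31.0 RPKM.

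**Figure D1:**
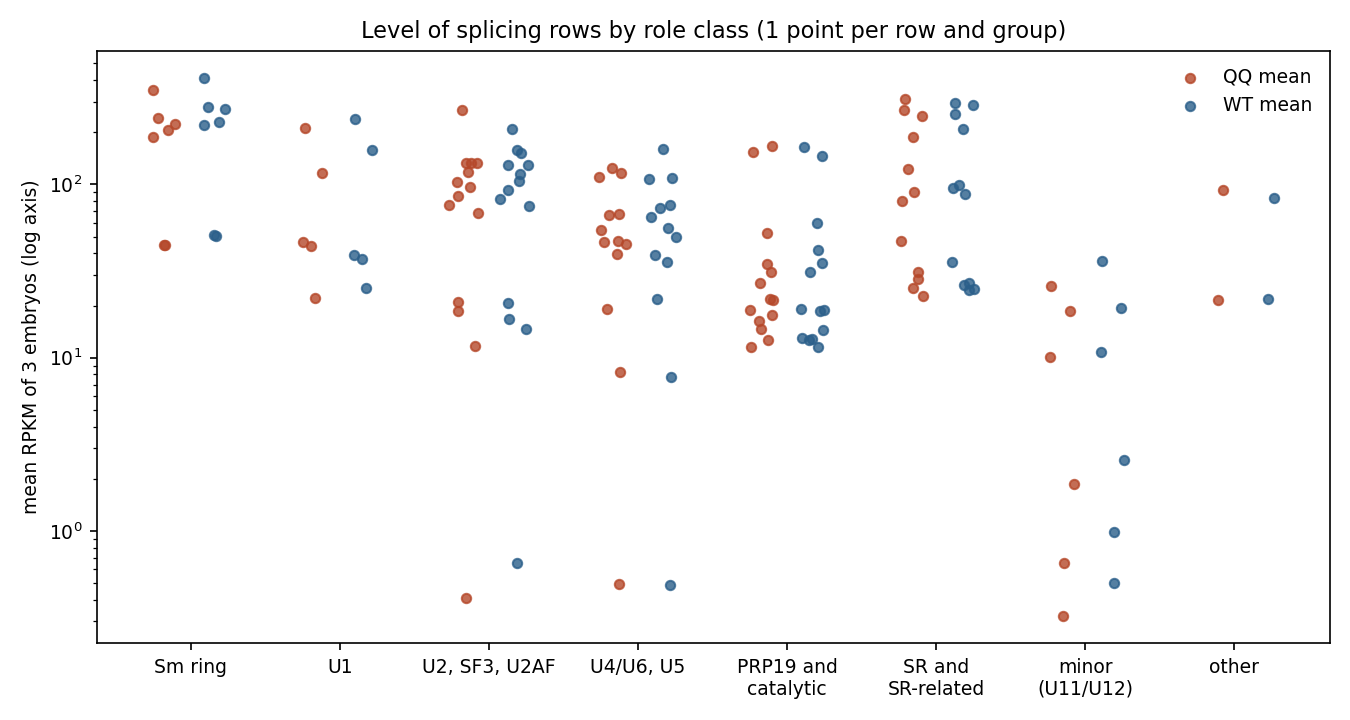
Mean RPKM (log axis) of each splicing row over 3 QQ embryos (left points of each class) and 3 WT embryos (right points), by role class. The Sm rows lie between 44.5 and 352 RPKM in QQ and between 50.4 and 414 RPKM in WT, and most rows of the minor spliceosome lie below 20 RPKM in both groups. The 684 bp row of BCAS2, with reads in 1 library only, is not drawn.

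No splicing row passed the edgeR quasi-likelihood test at an adjusted p of 0.05 in either direction, and the lowest adjusted p was 0.233. The share called over all tested rows was also 0% in each direction. DESeq2 likewise called none of the members, against 0.738% of all tested rows higher and 0.0573% lower in QQ. It gave no adjusted p to a 2361 bp row of SF3A1 and a 2184 bp row of PRPF3, which therefore could not be called. What the members showed was small differences, most of them of one sign. The log2 fold change (QQ over WT) was below 0 in 53 of 71 tested members, against 50.3% of all tested rows, and above 0 in 18, against 49.7%. An unadjusted p under 0.05 was reached by 24 members with lower values in QQ, against 9.3% of all rows, and by 0 with higher values, against 11%. The count of 24 was 1 without QQ replicate 2 (1.41%, against 3.05% of all tested rows), where the members' share was the lower one. It was 4 without QQ replicate 3 (5.63%, against 2.70%) and 11 without WT replicate 3 (15.5%, against 5.15%). It lay between 18 and 23 without any 1 of the other libraries (25.4 to 32.4%, against 8.33 to 10.97%). With limma on log2 RPKM it was 7 (9.86%, against 4.59% of all tested rows), and after quantile normalization 11 (15.5%, against 9.77%). In RPKM, every QQ embryo lay below every WT embryo in 18 members (25.4%, against 9.07% of all tested rows). Every QQ embryo lay above every WT embryo in 4 members (5.63%, against 18.8%): SF3B1, PRPF38B, PRPF18 and SLU7. The median log2 fold change was −0.23 over the members, −0.15 without WT replicate 3, and near 0 over all tested rows (−0.0028).

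The libraries did not contribute alike. By RPKM, WT replicate 3 was the highest of the 6 libraries in 35 of the 71 tested members and the lowest in 17, against 3533 and 5778 of all 13957 tested rows. Over all members, the median deviation from a row's own mean (in log2 counts per 1000000 reads after TMM scaling) was −0.032, −0.088 and −0.15 in QQ replicates 1 to 3 and 0.040, 0.057 and 0.22 in WT replicates 1 to 3. The groups did not overlap in these medians, but the gap between QQ replicate 1 and WT replicate 1 was smaller than the spread within either group.

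**Figure D2:**
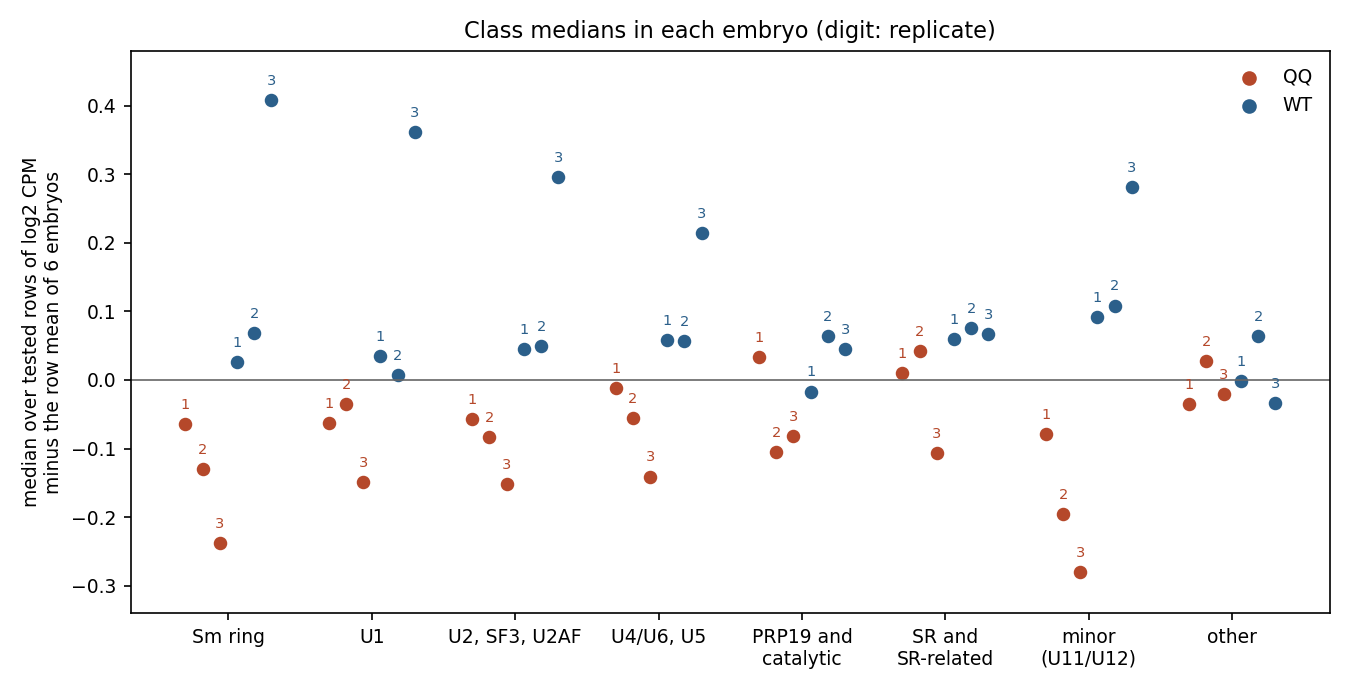
Median over the tested rows of each role class of the log2 counts per 1000000 reads minus the row's mean over 6 embryos, in QQ (left points) and WT (right points), with the replicate as a digit. Sm rows have medians from −0.24 to −0.065 in QQ and from 0.026 to 0.41 in WT, with WT replicate 3 at the top.

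The Sm proteins form the ring on which the snRNPs are built. All 7 tested Sm rows had lower estimates in QQ, with a median log2 fold change of −0.31 (−0.17 without WT replicate 3) and a range of −0.39 to −0.26. These rows are not the full ring: they were SNRPE, SNRPF, SNRPD2, SNRPD3, SNRPB, SNRPN and 1 described as either of the last 2. SNRPD1 and SNRPG had no row among the members. SNRPE, the Sm row with the highest level (transcript ENSSSCT00000023057, 556 bp), had 357, 368 and 330.5 RPKM in QQ replicates 1 to 3, against 370, 400 and 471 RPKM in WT replicates 1 to 3. The groups did not overlap, though QQ replicate 2 and WT replicate 1 were nearly equal, and the log2 fold change was −0.33 ± 0.13 (SE, n = 3 each, edgeR adjusted p = 0.233), or −0.20 without WT replicate 3. SNRPF had 241, 232 and 194 RPKM in QQ and 246, 255 and 315 RPKM in WT embryos, again without overlap (−0.39 ± 0.15, or −0.24 without WT replicate 3, edgeR adjusted p = 0.233). A row described as SNRPB or SNRPN averaged 188 ± 1.60 RPKM in QQ and 222 ± 25.2 RPKM in WT embryos (SD, n = 3 each). The products of SNRPB and SNRPN are near-identical proteins, so the assignment of reads between these rows is uncertain, and the other Sm genes may share reads with close copies. SNRPD3 averaged 244 ± 22.4 RPKM in QQ and 281 ± 40.0 RPKM in WT embryos, and its groups overlapped. In the 7 Sm rows WT replicate 3 was the highest library each time.

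The U1 particle split by protein. SNRPA, a U1 protein that binds a stem-loop of U1 RNA (ENSSSCT00000003330, 1372 bp), had 128, 114 and 108 RPKM in QQ replicates 1 to 3, against 147, 138 and 189 RPKM in WT replicates 1 to 3. The highest QQ embryo was below the lowest WT embryo, and its log2 fold change of −0.54 ± 0.16 (−0.36 without WT replicate 3) had the lowest unadjusted p of the members, 0.00785 by edgeR (adjusted p = 0.233). SNRNP70, a core U1 protein, had 211, 209 and 213 RPKM in QQ and 227, 222 and 272 RPKM in WT embryos. Its 3 QQ values were closer together than its WT values and all lay below them, at −0.28 ± 0.12 on the log2 scale (−0.16 without WT replicate 3, edgeR adjusted p = 0.242). PRPF39, a U1-associated protein named after a yeast U1 factor, had 38.1, 53.9 and 41.0 RPKM in QQ and 38.4, 39.8 and 32.9 RPKM in WT embryos. Its estimate had the other sign, 0.16 ± 0.13 (0.11 without WT replicate 3), and its groups overlapped. PRPF40B was at −0.29 ± 0.14 (−0.17 without that library), so 3 of the 5 U1 rows had lower and 2 higher estimates (median −0.28, or −0.16 without WT replicate 3).

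**Figure D3:**
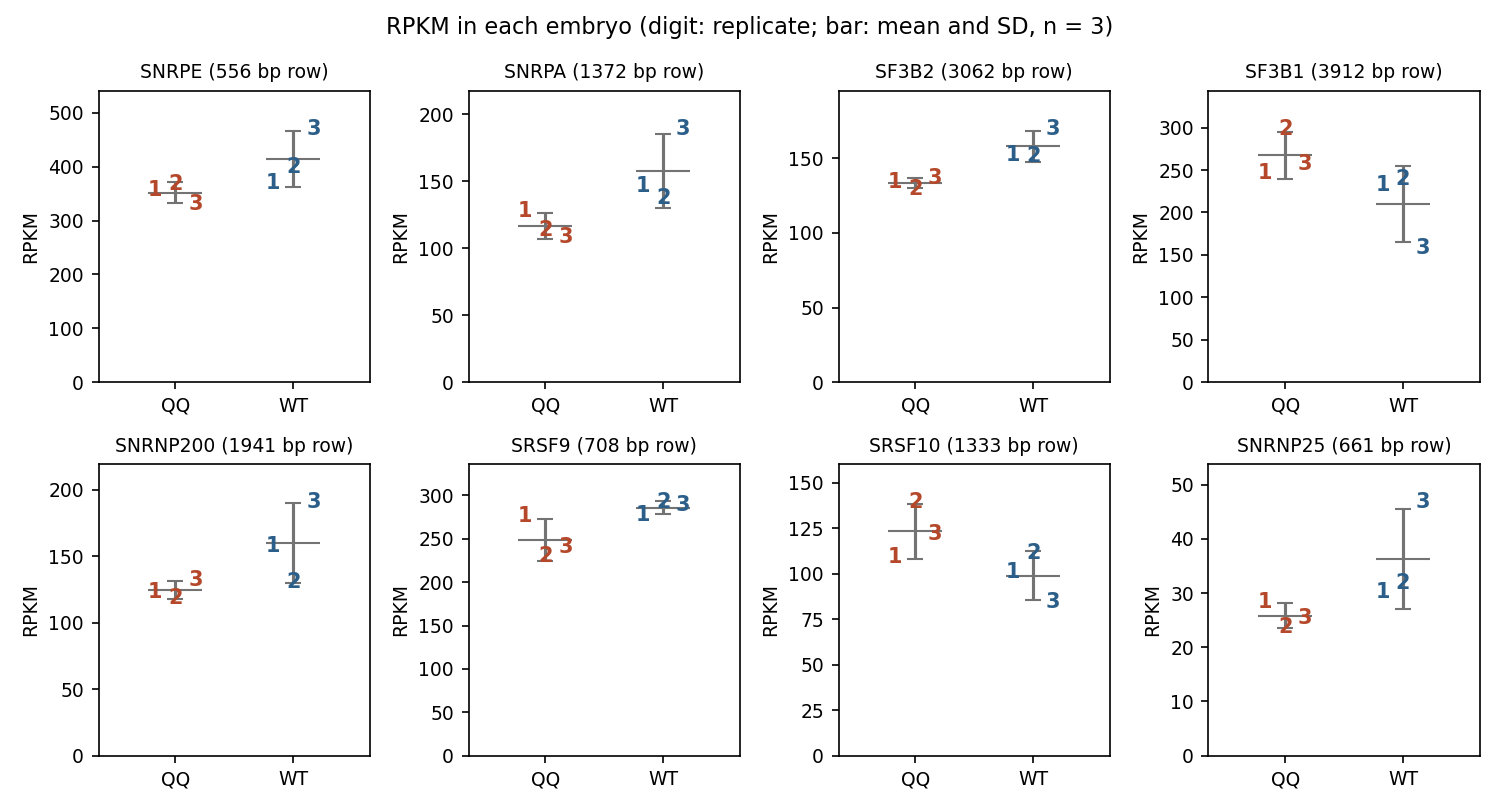
RPKM in each embryo (digit: replicate) for 8 splicing genes, QQ left of WT, with the mean and SD over 3 embryos as a grey bar. SNRPE, SNRPA, SF3B2, SRSF9 and SNRNP25 have all 3 QQ embryos below all WT embryos, SNRPE and SRSF9 only just. SF3B1 has them above, with WT replicate 3 at 158 RPKM the lowest.

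The U2 class holds the proteins of branch point recognition, and its SF3B subunits had estimates of both signs. Of 14 rows, 11 had lower and 3 higher estimates in QQ, with a median of −0.24 (−0.15 without WT replicate 3). SF3B1, the scaffold that clamps the branch site (ENSSSCT00000017503, 3912 bp), had 246, 299 and 258 RPKM in QQ replicates 1 to 3, against 232, 239 and 158 RPKM in WT replicates 1 to 3. All QQ embryos were above all WT embryos, but most of the gap came from WT replicate 3: the log2 fold change was 0.26 ± 0.15 (edgeR adjusted p = 0.328) with it and 0.11 without it. SF3B2 (ENSSSCT00000014162, 3062 bp), its partner in the same complex, had 134, 129.6 and 136 RPKM in QQ and 152, 152 and 169.8 RPKM in WT embryos. Here the groups were apart in the other direction, with −0.34 ± 0.11 (−0.26 without WT replicate 3, edgeR adjusted p = 0.233). SF3B4, which holds RNA next to the branch site, averaged 97.1 ± 1.67 RPKM in QQ and 115 ± 10.9 RPKM in WT embryos (SD, n = 3 each), with −0.34 ± 0.12 and no overlap. The rows of SF3B3 differed in sign, and both overlapped between groups. Its 1479 bp row was at 0.072 ± 0.12 (−0.023 without WT replicate 3) and its 1830 bp row at −0.21 ± 0.10 (−0.16 without it). SNRPA1, a core U2 protein, had 118, 104 and 88.4 RPKM in QQ and 117, 117 and 153 RPKM in WT embryos, so its groups overlapped (−0.41 ± 0.17, or −0.24 without WT replicate 3). SMNDC1, also called SPF30, was at 0.21 ± 0.12 (0.13 without that library). A 3304 bp row of SF3A1 was at −0.43 ± 0.15, but reads covered only 25.3 to 25.9% of it. A second SF3A1 row of 2361 bp had 0, 22 and 14 reads in QQ and 23, 0 and 37 reads in WT embryos, which gave an estimate of −0.81 with an SE of 1.02, and of −0.028 without WT replicate 3.

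Among the U4/U6 and U5 proteins, 11 of 13 rows had lower and 2 higher estimates in QQ, with a median of −0.23 (−0.17 without WT replicate 3). SNRNP200, the U5 helicase that unwinds U4 from U6, had 2 rows. Its 1941 bp row (ENSSSCT00000008906) had 123, 119 and 132 RPKM in QQ replicates 1 to 3, against 158, 131 and 191 RPKM in WT replicates 1 to 3. WT replicate 2 lay within the QQ range, and the log2 fold change was −0.46 ± 0.16 (−0.28 without WT replicate 3, edgeR adjusted p = 0.233), whereas the 1174 bp row of the gene was at −0.064 ± 0.10. PRPF8, the U5 scaffold at the catalytic core, had 102, 118 and 128 RPKM in QQ and 119, 103 and 103 RPKM in WT embryos, with its groups fully interleaved. PRPF4, a U4/U6 protein, had 52.7, 46.8 and 42.4 RPKM in QQ and 53.7, 52.6 and 62.7 RPKM in WT embryos (−0.35 ± 0.14, edgeR adjusted p = 0.233). Only QQ replicate 1 reached into the WT range. PRPF31, another U4/U6 protein, was at −0.33 ± 0.14 (−0.20 without WT replicate 3). PRPF38B, a homologue of a yeast factor that acts when the assembled spliceosome is activated, had all QQ embryos above all WT embryos (46.7 ± 1.86 RPKM in QQ and 39.1 ± 5.0 in WT), at 0.16 ± 0.11 (0.086 without WT replicate 3). PRPF38A was at 0.050 ± 0.14. PRPF18 was apart between groups in RPKM, at 8.25 ± 0.251 in QQ and 7.78 ± 0.143 in WT, but its estimate after TMM scaling was −0.012 ± 0.11 (0.021 without WT replicate 3).

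Catalytic-stage factors divided evenly. Of 14 tested rows, 7 had lower and 7 higher estimates (median −0.034, or −0.12 without QQ replicate 1, −0.10 without WT replicate 1 and 0.040 without WT replicate 2). With limma on log2 RPKM the class median was 0.062, where all tested rows had a median of 0.081. PRPF19, the ubiquitin ligase at the heart of the PRP19 complex, averaged 154 ± 8.76 RPKM in QQ and 165 ± 13.2 RPKM in WT embryos. DHX15, a helicase that takes spliceosomes apart, had 156, 173 and 171 RPKM in QQ and 148, 167 and 124 RPKM in WT embryos. Both genes overlapped between groups. RBM22, which contacts the catalytic RNA, had 53.3, 53.7 and 49.9 RPKM in QQ and 56.7, 59.5 and 63.1 RPKM in WT embryos, without overlap (−0.29 ± 0.11, edgeR adjusted p = 0.233). XAB2, a protein of the same stage, was at −0.28 ± 0.12 (−0.17 without WT replicate 3). On the other side stood SLU7 and CDC40, which act in the second catalytic step. SLU7 had 16.3, 18.8 and 18.0 RPKM in QQ and 15.6, 15.8 and 12.1 RPKM in WT embryos (0.20 ± 0.12), and CDC40 was at 0.26 ± 0.15. Without WT replicate 3 these were 0.10 and 0.11. The helicase DHX38 had 3 rows, and the row with the most reads (2704 bp) was at −0.27 ± 0.14. Its rows of 784 and 1050 bp were at 0.10 ± 0.19 and 0.044 ± 0.18, both among the higher rows. Without WT replicate 3 the DHX38 rows were at −0.19, −0.051 and −0.054.

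SR and SR-related proteins were among the most abundant members and had a median near 0. Lower estimates were found in 9 of 12 rows and higher ones in 3, with a median of −0.036 (−0.10 without QQ replicate 2 or without WT replicate 1). With limma on log2 RPKM the class median was 0.057, where all tested rows had a median of 0.081. TRA2B, an activator of exon inclusion, had 302, 339 and 293 RPKM in QQ and 274, 322 and 289 RPKM in WT embryos, with overlapping groups (−0.021 ± 0.11, or −0.013 without WT replicate 3). SRSF9 had 276, 231 and 240.0 RPKM in QQ and 277, 292 and 289 RPKM in WT embryos. All QQ embryos lay below all WT embryos, QQ replicate 1 only just (−0.29 ± 0.12, edgeR adjusted p = 0.234). SRSF4 averaged 80.5 ± 4.86 RPKM in QQ and 94.9 ± 9.14 RPKM in WT embryos (−0.33 ± 0.12). SRSF10, known for repressing splicing when dephosphorylated, had 109, 139 and 122 RPKM in QQ and 101, 111 and 84.6 RPKM in WT embryos, with WT replicate 2 above QQ replicate 1 (0.22 ± 0.12, or 0.14 without WT replicate 3, edgeR adjusted p = 0.30). SCAF4, a protein that binds the tail of RNA polymerase II, was at 0.24 ± 0.12. Of the proteins in no class, WTAP, a subunit of the writer complex of N6-methyladenosine, was at 0.067 ± 0.11 (0.031 without WT replicate 3) and the helicase DHX32 at −0.11 ± 0.10.

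The minor spliceosome had few rows and the lowest median of the role classes. All 4 tested rows were lower in QQ by their estimate, with a median of −0.38 (−0.26 without WT replicate 3). SNRNP25, a protein of the U11/U12 particle (ENSSSCT00000008725, 661 bp), had 28.3, 23.8 and 25.4 RPKM in QQ replicates 1 to 3, against 30.2, 31.8 and 46.8 RPKM in WT replicates 1 to 3. The groups did not overlap, and WT replicate 3 was far above the rest: the log2 fold change was −0.59 ± 0.21 (edgeR adjusted p = 0.233) with it and −0.33 without it. ZRSR2, which recognises the 3′ splice site of minor introns, was low, at 1.92, 1.90 and 1.74 RPKM in QQ and 2.39, 2.54 and 2.77 RPKM in WT embryos. Its WT values were all above its QQ values, and its estimate of −0.56 ± 0.22 moved little without WT replicate 3 (−0.48), although reads covered only 29.8 to 35.1% of the row. SNRNP35 had 9.83, 10.3 and 10.4 RPKM in QQ and 10.9, 10.9 and 10.8 RPKM in WT embryos, apart but by a small amount (−0.19 ± 0.12). SNRNP48 overlapped (−0.14 ± 0.15).

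**Figure D4:**
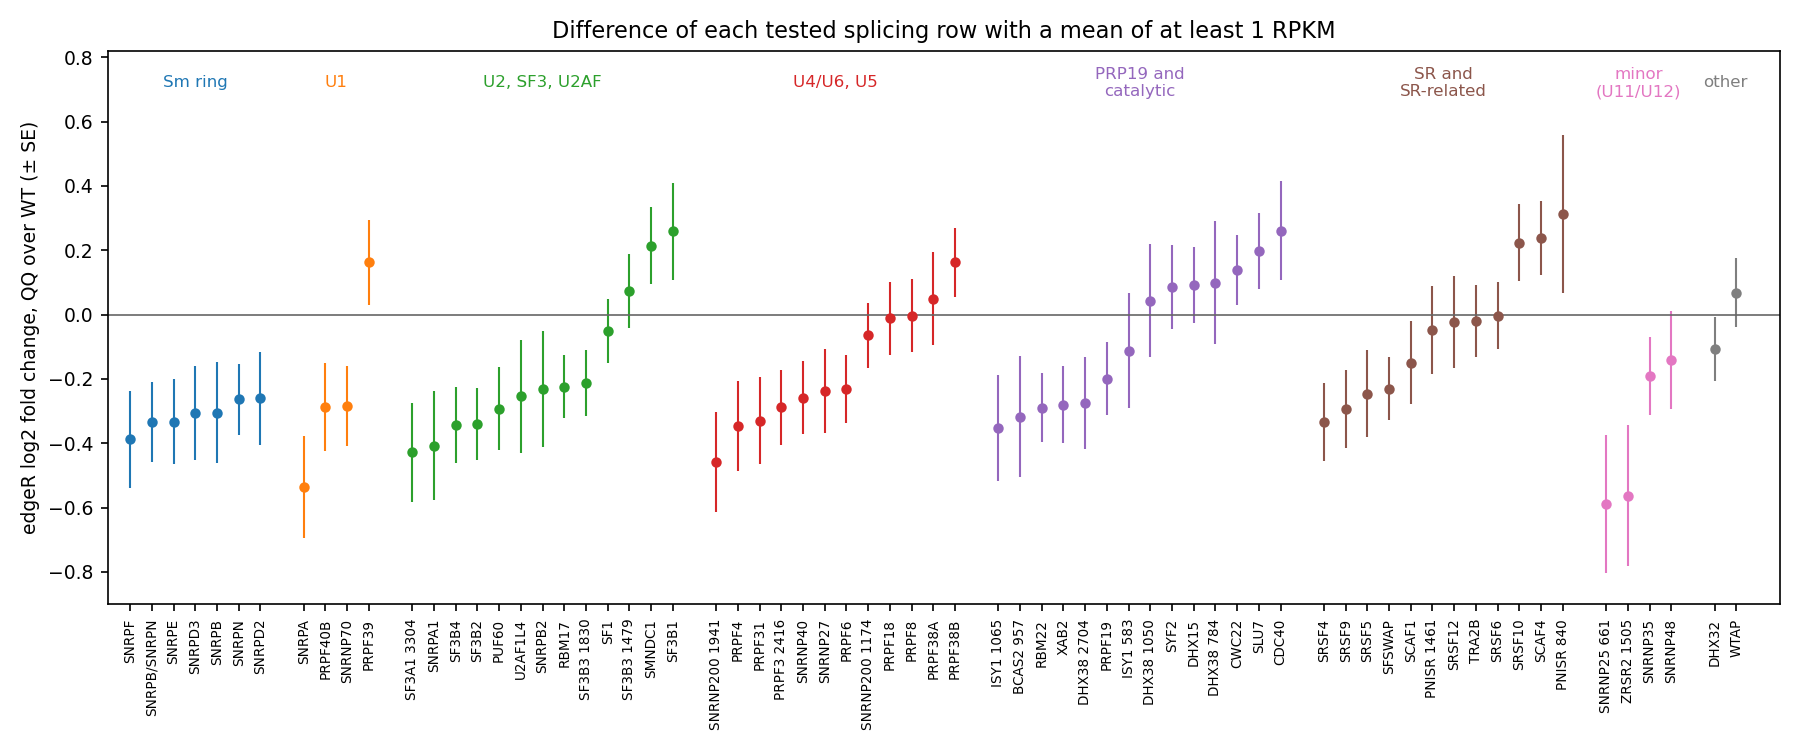
edgeR log2 fold change, QQ over WT, with its SE, for each tested splicing row with a mean of at least 1 RPKM, sorted within role class, apart from 1 row that is not reported. Points below 0 are lower in QQ, as are all Sm and minor spliceosome rows, while catalytic-stage rows fall on both sides. A number after a name is the row's length in bp.

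Long members differed from short ones in sign. Of 11 tested members over 3500 bp, 8 had higher estimates in QQ (median 0.16), which is 8 of the 18 members with higher estimates, and by RPKM WT replicate 3 was the lowest library in each of the 8. All tested rows of that length had a median of 0.091, with 38.1% lower. At 1000 bp or less, 16 of 19 members had lower estimates (median −0.25), against a median of −0.0055 over all rows of that length. Between 2000 and 3500 bp, 19 of 21 members were lower (median −0.27, against −0.026 over all rows). Across the 71 tested members, Spearman's rho between length and log2 fold change was 0.30, and over all tested rows it was 0.11. Genes are not independent replicates, all these estimates share the same 6 libraries, and the part of length in the differences was not tested. With each library's length trend removed, a step chosen after the data were seen, the members' median was −0.27, against −0.071 over all tested rows, and rho over the members was 0.28.

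**Figure D5:**
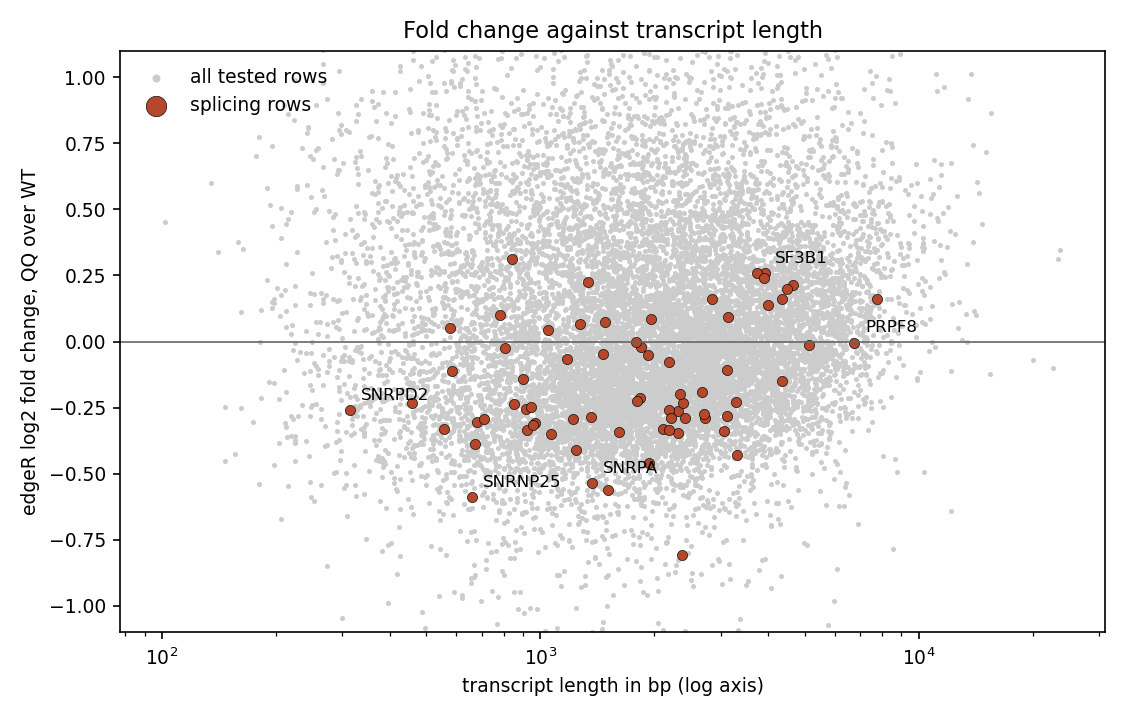
edgeR log2 fold change, QQ over WT, against transcript length (log axis) for all tested rows (grey) and tested splicing rows (red), with rows beyond 1.1 either way outside the axis. Splicing rows over 3500 bp lie mostly above 0 and shorter ones mostly below.

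Where 1 gene had several rows with reads, the rows could be set against each other within a library. For the 8 row pairs of 6 genes tested, the log2 ratio of the rows was compared between groups with an exact two-sided permutation test, whose smallest possible p here is 0.1. The ratio of the 1479 bp to the 1830 bp row of SF3B3, a subunit of the SF3B complex, averaged 0.62 in QQ and 0.33 in WT embryos, a difference of 0.29 (exact p = 0.1, adjusted p = 0.533 over 8 pairs). For SNRNP200 the ratio of the 1941 bp to the 1174 bp row averaged 0.17 in QQ and 0.55 in WT embryos (exact p = 0.2, adjusted p = 0.533). None of the 8 pairs could pass 0.05 in this design.

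Genes that work with the spliceosome gave the same count of adjusted calls, 0 in each list by edgeR. The lists are incomplete, since a named row was found for 42 of 76 other spliceosome genes and 16 of 23 exon junction and export genes. It was found for 22 of 24 hnRNP genes, 8 of 10 SR kinase and transport genes and 27 of 32 tissue-restricted regulators. The SMN list had all 16. Over all tested rows, an unadjusted p under 0.05 was reached by 9.3% with lower and 11% with higher values in QQ. Spliceosome genes of the role classes whose descriptions lack the 4 phrases had lower estimates in 32 of 41 tested rows (median −0.14, with 7 lower, or 17.1%, and 1 higher at an unadjusted p under 0.05). Among them CD2BP2, a U5 protein, averaged 17.6 ± 1.04 RPKM in QQ and 22.2 ± 3.30 RPKM in WT embryos. The list also held LSM1 and LSM11, placed there by family with the Sm and LSm ring proteins. PRPF4B was counted both there and among the SR kinases. The SMN complex and its partners, which load the Sm ring onto small nuclear RNA, were lower in 13 of 16 by estimate (median −0.15, or −0.23 without WT replicate 1), 4 of them (25.0%) with an unadjusted p under 0.05. WDR77, a partner of the methylase that modifies Sm proteins, had 48.5, 47.3 and 44.1 RPKM in QQ and 54.5, 59.3 and 57.8 RPKM in WT embryos, apart and not led by WT replicate 3 (−0.39 ± 0.11, edgeR adjusted p = 0.233). GEMIN4, an SMN complex subunit, was at −0.38 ± 0.10. Exon junction and export factors were lower in 13 of 16 (median −0.22, 6 lower, or 37.5%, and 1 higher at an unadjusted p under 0.05), with the helicase DDX39B at −0.46 ± 0.16 (−0.25 without WT replicate 3) and THOC2, a subunit of the THO export complex, at 0.45 ± 0.15 (0.30 without it). The hnRNP proteins, which coat nascent transcripts, were lower in 16 of 22 (median −0.091, but 0.10 with limma after quantile normalization, and 2 lower, or 9.09%, and 0 higher at an unadjusted p under 0.05), and HNRNPL averaged 322 ± 4.98 RPKM in QQ and 428 ± 63.1 RPKM in WT embryos (−0.51 ± 0.14).

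SR kinases and SR transport were lower in 2 of 8 by estimate (median 0.063, or 0.17 without QQ replicate 1, 0.010 without QQ replicate 2 and 0.029 without WT replicate 3). An unadjusted p under 0.05 was reached by 1 with lower and 0 with higher values. CLK2, a kinase of SR proteins, was at −0.32 ± 0.11 and SRPK1, another, at 0.42 ± 0.22 (0.18 without WT replicate 3, which had 34.8 RPKM). The list of tissue-restricted splicing regulators also held genes abundant in these embryos, among them PTBP1 (mean 487 RPKM, −0.048 ± 0.10) and KHDRBS1 (189 RPKM, −0.023 ± 0.097). This list had the other sign from the members, with higher estimates in 16 of 23 (median 0.25). An unadjusted p under 0.05 was reached by 7 with higher values, against 11% of all tested rows, and 0 with lower values, against 9.3%. The list median was 0.15 without QQ replicate 2 or without QQ replicate 3, and 0.21 without WT replicate 3. By RPKM, WT replicate 3 was the lowest library in 13 of the 23, against 5778 of all 13957 tested rows. NOVA2, a neuronal regulator, had 2.67, 2.53 and 2.83 RPKM in QQ and 1.63, 1.52 and 1.45 RPKM in WT embryos (0.71 ± 0.18, edgeR adjusted p = 0.233). RBM20, known from heart muscle, had 18, 15 and 19 reads in the QQ libraries and 9, 8 and 3 reads in WT embryos (1.29 ± 0.41, or 0.94 without WT replicate 3). It was near the floor, at a mean of 0.27 RPKM, and reads covered only 4.19 to 6.41% of its row.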

How the data were processed

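Total RNA of 6 pig embryos was made into TruSeq libraries, per the labels' protocols. The genome build was Sscrofa10.2, per the submitters' processing notes. Neither aligner nor counting program nor strand setting is given in the sources used here. Per the file headers, the deposited table has 1 row for each Ensembl transcript, with a count of uniquely mapped reads in every library (a dash was read as 0), the percent of the transcript covered, and an RPKM. Recomputing RPKM from count, length and library total gave the deposited values (largest relative gap 1.29e-07).

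The main test was edgeR 4.0.16 (R 4.3.3) with TMM scaling (factors 0.933 to 1.06), filterByExpr at its minimum count of 10, quasi-likelihood fits and Benjamini-Hochberg adjustment over all 13957 tested rows, at 0.05. A standard error is that of the log2 fold change, while means and SDs were taken over the deposited RPKM. Members were set beside all tested rows by counts and medians, with no test over a list. Alternatives used limma 3.58.1, DESeq2 1.42.0, other scalings and filters, and each library left out. Scripts were checked on simulated counts.

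Symbols came from the deposited protein descriptions, and for other genes also from protein accessions or KEGG matches through gene tables of Sscrofa11.1; the rows carry none themselves. The rule for named genes took, per role class, the 2 rows with the highest mean RPKM and in each direction the 2 of smallest unadjusted p (mean at least 1 RPKM), and per related list the 2 with the smallest p; other members were chosen after their values were seen, and 1 member is not reported here by name. The members and lists were chosen with earlier results of these data known. No 2 libraries were alike within sampling noise (smallest chi-square per degree of freedom 7.54).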

Additional observations from a re-analysis of the deposited data

How the results depend on the processing

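No alternative brought a splicing member past the threshold, and the sign of the log2 fold change was the same under all 15 alternatives in 57 of 71 tested members (44 lower, 13 higher), among them all 7 Sm rows and all 4 of the minor spliceosome. Over all tested rows, DESeq2 called 103 higher and 8 lower, and leaving out 1 library gave 0 to 2 higher and 0 to 1 lower. Members with an unadjusted p under 0.05 and lower values numbered 8 with the replicate number as a block (11.3%, against 5.6% of all tested rows). They numbered 7 with limma (9.86%, against 4.59%), 11 with limma after quantile normalization (15.5%, against 9.77%) and 6 with a pseudocount of 0.1 (8.45%, against 4.49%). With 1 library left out they numbered 1 to 23 (1.41 to 32.4%, against 2.70 to 10.97%). Only without QQ replicate 2 was the members' share the lower one (1.41%, against 3.05%). Those with higher values numbered 2, 3 and 2 in the 3 limma fits (2.82, 4.23 and 2.82%, against 15.04, 10.09 and 14.74% of all tested rows). With 1 library left out they numbered 0 to 1 (at most 1.41%, against 5.02 to 14.7%). Deviations of same-numbered embryos correlated at −0.19, 0.21 and −0.056, and those of differently numbered embryos at −0.17 to 0.22. With 3 embryos per group this cannot tell whether the numbers pair embryos, and the labels do not say that they do.

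Median log2 fold changes moved with limma, with quantile normalization and with a pseudocount of 0.1: for all members to −0.13, −0.12 and −0.13 (all tested rows at 0.081, −0.043 and 0.090, so the gap was −0.21, −0.074 and −0.22), for U4/U6 and U5 to −0.13, −0.13 and −0.13, for SR proteins to 0.057, 0.028 and 0.057, for members of no class to 0.076, 0.023 and 0.076, and for hnRNP proteins to 0.0037, 0.10 and 0.0037. Quantile normalization gave −0.14 for Sm, −0.0725 for U1, −0.12 for U2 and 0.12 for tissue-restricted regulators. Limma and its pseudocount of 0.1 gave 0.062 and 0.065 for catalytic-stage factors, −0.23 and −0.27 for the minor spliceosome, −0.040 and −0.045 for the SMN list, −0.12 and −0.12 for exon junction and export, and −0.0412 and −0.043 for the other spliceosome genes. A mean of at least 2 RPKM gave 0.15 for tissue-restricted regulators, and removing the length trend, an alternative chosen after seeing the data, gave 0.18 for them and −0.21 for the other spliceosome genes. With 1 library left out, medians ran from −0.12 to 0.040 for catalytic-stage factors, −0.10 to 0.00488 for SR proteins and −0.41 to −0.26 for the minor spliceosome. They ran from −0.23 to −0.12 for the SMN list, 0.010 to 0.17 for SR kinases and 0.15 to 0.31 for tissue-restricted regulators.

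Of 659 values of 44 named genes under alternatives, 16 changed sign. PRPF38A was at −0.029 with the length trend removed. PRPF8 was at 0.0040 with median-ratio scaling and with DESeq2, 0.00426 with a mean of at least 2 RPKM, and 0.091, 0.13 and 0.091 in the limma fits. TRA2B was at 0.076, 0.19 and 0.076 in the limma fits. The medians over all tested rows in these fits were 0.081, −0.043 and 0.090. With 1 library left out, PRPF38A ran from −0.026 to 0.12, PRPF8 from −0.070 to 0.053 and TRA2B from −0.0849 to 0.033. The cause was not tested. Precision is limited by 3 embryos per group.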
